A study of Mus musculus with 93 samples.

Results

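The nuclear-encoded genes of the respiratory chain and the ATP synthase were followed in cardiac progenitor cells (CPCs) from mouse embryos and from spheroids grown from mouse embryonic stem cells. The genes were found by symbol alone (Nduf genes of the a, b, c, s and v series, Sdha to Sdhd, Uqcr genes, Cyc1, Cox4 to Cox8 and Atp5 genes), which gave 84 of the 24514 symbols in the count table. By name, 36 belong to complex I, 4 to complex II, 9 to complex III, 18 to complex IV and 17 to complex V. Ndufa4 is counted with complex I by its name, although the protein is also found in complex IV, and Atp5s and Atp5sl carry the name of the ATP synthase although they are not structural subunits of it. The subunits that the mitochondrial genome encodes were not analysed here.

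GFP+ cells carried the Hcn4-GFP reporter, which marks the first heart field, and RFP+ cells carried the Ai9 reporter switched on by Tbx1-Cre, which marks progeny of the second heart field. All cells had the genotype Hcn4-GFP; Tbx1-Cre; Ai9, and the spheroids came from a single stem cell line of that genotype, induced with growth factors and sorted at day 5.5. Embryo cells are given as E8.5 in the sample titles and as E7.75 in the extraction protocol. RNA was read from pools of 10 sorted cells, with 5 libraries of in vivo GFP+ cells, 4 of in vivo RFP+ cells, 38 of in vitro GFP+ cells and 46 of in vitro RFP+ cells. Wells were not assigned to embryos or differentiations, so p-values measure the spread between wells.

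Complexes I to IV pass electrons from NADH and succinate through ubiquinone and cytochrome c to oxygen, and complexes I, III and IV pump protons across the inner mitochondrial membrane. Complex V, the ATP synthase, lets the protons flow back and makes ATP from ADP and phosphate. Several complex IV subunits have a second gene used mainly in heart and skeletal muscle, in testis or in lung, and the heart raises its use of oxidative phosphorylation as cardiomyocytes mature.

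Promoters are shown for 6 of the members named below, as examples. Uqcr11, Cox6a1 and Cox6b1 were called higher in RFP+ cells of both sources, but in vivo not with the gene length trend removed. Sdha was higher in GFP+ cells of both sources. Cox6b2, the testis-type gene, was higher in in vitro GFP+ cells. Cox7a1, the muscle-type gene, was higher in in vivo than in in vitro GFP+ cells. Each run is the 120 bases before the RefSeq start of the gene in GRCm38.p6, 5′ to 3′ on the gene's strand. Capitals mark matches to the letters GCGCANGCG, read by NRF1, or CCGGAAG, read by GABP (NRF2), both of them known regulators of respiratory chain genes. The positions are chr10:80406822-80406941 on the minus strand for Uqcr11, chr5:115348959-115349078 (minus) for Cox6a1, chr7:30626115-30626234 (minus) for Cox6b1, chr13:74350241-74350360 (minus) for Sdha, chr7:4753095-4753214 (minus) for Cox6b2 and chr7:30184051-30184170 (plus) for Cox7a1.
Uqcr11: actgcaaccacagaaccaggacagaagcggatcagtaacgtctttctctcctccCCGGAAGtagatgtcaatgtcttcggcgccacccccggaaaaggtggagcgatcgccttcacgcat
Cox6a1: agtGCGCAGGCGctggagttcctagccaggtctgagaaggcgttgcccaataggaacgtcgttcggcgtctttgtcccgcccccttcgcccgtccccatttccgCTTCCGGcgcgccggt
Cox6b1: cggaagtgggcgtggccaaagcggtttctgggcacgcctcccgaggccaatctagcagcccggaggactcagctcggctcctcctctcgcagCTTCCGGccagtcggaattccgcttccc
Sdha: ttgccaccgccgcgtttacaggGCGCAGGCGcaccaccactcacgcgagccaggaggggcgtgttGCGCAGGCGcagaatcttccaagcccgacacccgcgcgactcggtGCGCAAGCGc
Cox6b2: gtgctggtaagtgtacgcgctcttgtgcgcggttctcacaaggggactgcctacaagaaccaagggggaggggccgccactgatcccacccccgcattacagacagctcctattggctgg
Cox7a1: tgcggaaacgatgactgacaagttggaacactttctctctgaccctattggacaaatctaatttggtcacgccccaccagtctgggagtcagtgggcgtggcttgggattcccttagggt

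The Sdha run held 3 matches to the NRF1 letters, Cox6a1 held 1 of each kind, Uqcr11 and Cox6b1 held 1 GABP match, and the runs of the tissue-type genes Cox6b2 and Cox7a1 held none. RefSeq promoters were found for 69 of the 84 members, 3 of them by a synonym, and their 250 bases before the start were searched on both strands. GCGCANGCG was found for 14 members (20.3%), against 5.86% of 27025 genes and 14.3% of the 7706 other genes tested in vitro. CCGGAAG was found for 12 members (17.4%), against 7.83% of all genes and 17.6% of the other genes tested in vitro. The letters TNAAGGTCA of the estrogen-related receptors were found for 2 members (2.9%, against 1.3% and 0.75%) and AANATGGCG of YY1 for 4 (5.8%, against 1.29% and 2.97%). Of the 20 members higher in RFP+ cells of both sources, 19 had a promoter in the table, and NRF1 letters were in 3 of them, GABP letters in 6, YY1 letters in 2 and estrogen-related receptor letters in 0. Only 5 of the 20 stayed called in both sources with the length trend removed. Among these, Ndufb7 held 1 GABP match, and Atp5g1, Atp5j2, Cox5b and Ndufb8 held no match to any of the 4 letter sets.

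The members took 1.71 to 2.52% of the counts in in vivo GFP+ libraries and 2.78 to 3.38% in in vivo RFP+ libraries. In vitro they took 2.26 to 2.89% in GFP+ and 2.8 to 3.59% in RFP+ libraries. Total counts per library ran from 712732 to 2525460 in in vivo GFP+, from 1246546 to 1479957 in in vivo RFP+, from 6288 to 4371849 in in vitro GFP+ and from 445071 to 5658882 in in vitro RFP+ cells. The in vitro GFP+ library in well C9 held the 6288 counts and the next smallest held 828193. At that depth 1 count equals 73.3 CPM (library-size-scaled counts, TMM-adjusted), so the in vitro GFP+ ranges below leave well C9 out and cover 37 libraries, while the tests keep it unless stated. Embryo libraries differed in the number of genes with a count, at 6189 to 8302 for GFP+ and 10263 to 13052 for RFP+ cells, while 76 to 80 and 79 to 80 members had one. In 7 plate rows the in vitro RFP+ wells of columns 3 and 4 were nearly alike (r of 0.945 to 0.988, against 0.885 to 0.943 for the other pairs in a row), and they were counted separately. Spheroid cells of the 2 populations sat in separate plate columns, so for them plate position and population cannot be told apart.

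In vivo GFP+ pools were rich in cardiomyocyte transcripts. The summed CPM of 9 cardiomyocyte markers (Actc1, Tnnt2, Myl7, Myl4, Myh6, Myh7, Ttn, Tnni1 and Ryr2) was 17840 to 51780 in in vivo GFP+ libraries and 1174 to 2271 in in vivo RFP+ libraries, and all 9 were called higher in GFP+ cells. In vitro the sum was 20.01 to 1264 in GFP+ (median 54.3) and 18.5 to 139 in RFP+ libraries (median 60.3). Of the 9 markers, 4 were tested in vitro. Of these, 3 were called higher in GFP+ cells (40.1% of 9940 genes were) and 0 in RFP+ cells (37.8% were). Their median log2 fold change of RFP+ against GFP+ was -1.69. Of other cell types, 6 endoderm markers were at 0 in all in vivo GFP+ libraries and summed to 1.43 to 179 CPM in in vivo RFP+ libraries, and 6 endothelial markers summed to 0 to 89.3 and 55.7 to 232 CPM. The 6 blood markers summed to 0 to 1.07 CPM in in vivo GFP+ and 0 to 1157 CPM in in vivo RFP+ libraries, the 5 neural markers to 0 to 7.54 and 10.8 to 63.3, and the 6 pluripotency markers to 0 to 492 and 0 to 78. In vitro the median sums in GFP+ and RFP+ libraries were 127 and 38.8 CPM for endoderm and 152 and 36.3 for pluripotency markers. They were 10.1 and 21.4 for endothelial, 1.58 and 4.855 for blood and 36.3 and 59.5 for neural markers. The part of these markers in the differences between members was not tested. In such pools, fewer cells of a type and less RNA per cell cannot be told apart.

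Summed over all members, in vivo RFP+ cells held 32520 ± 3527 CPM (SD, n = 4) and in vivo GFP+ cells 21210 ± 4419 (SD, n = 5). The lowest RFP+ library (27710) lay just above the highest GFP+ library (27490). In vitro the sums were 32040 ± 2037 CPM in RFP+ cells (SD, n = 46, from 27700 to 36290) and 25430 ± 1568 in GFP+ cells (SD, n = 37, from 22150 to 29110), and these ranges overlapped. The RFP+ sums of embryo and spheroid lay close together, and the in vivo GFP+ sum was the lowest of the 4 groups.

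The complexes did not share this order. Complex I summed to 5849 ± 1302 CPM in in vivo GFP+ cells (4001 to 7270) and 11210 ± 1615 in in vivo RFP+ cells (9054 to 12830), with no overlap. Complex III summed to 2224 ± 657 (1327 to 3093) and 4139 ± 484 (3476 to 4634), again with no overlap. Complex IV (2709 ± 958 and 5095 ± 924) and complex V (8413 ± 1436 and 10340 ± 514) were higher on average in RFP+ cells, but their ranges overlapped. Complex II, which also serves the citric acid cycle as succinate dehydrogenase, went the other way on average, with 2010 ± 578 CPM in GFP+ cells (1360 to 2931) and 1736 ± 63.2 in RFP+ cells (1662 to 1817), and the RFP+ libraries lay within the GFP+ range. These sums and the shares below are not adjusted for gene length, which is taken up further on.

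**Figure D1:**
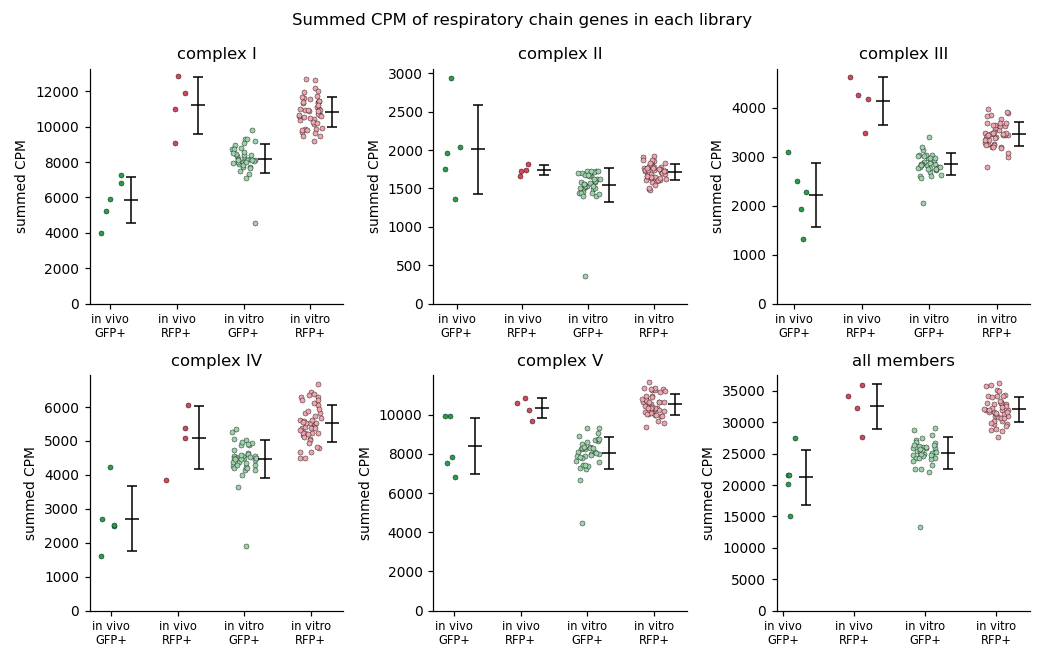
Summed CPM of the members of each complex and of all members (linear axes from 0) in every library of the 4 groups, with 1 point per library and bars for the group mean and SD, the low in vitro GFP+ point being well C9, which this plot and its bars keep. Complex I and complex III in in vivo RFP+ libraries lie above all in vivo GFP+ libraries, while the complex II sums of these 2 groups overlap. The sums are not adjusted for gene length.

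As a share of the members' own CPM, complex I made up 27.6 ± 2.87% in in vivo GFP+ cells and 34.4 ± 1.31% in in vivo RFP+ cells. Complex II made up 9.38 ± 0.767% and 5.38 ± 0.481%, and complex V 40.2 ± 4.88% and 31.98 ± 2.19%. In vitro GFP+ and RFP+ cells stood nearer to the in vivo RFP+ cells in these shares, with complex I at 32.6% and 33.7%, complex II at 6.21% and 5.37% and complex V at 32.03% and 32.9%. Complex III made up 10.4% and 12.7% in vivo and 11.3% and 10.8% in vitro in GFP+ and RFP+ cells, so in this share both in vitro groups stood nearer to the in vivo GFP+ cells. Complex IV made up 12.5% and 15.6% in vivo and 17.9% and 17.2% in vitro. Complexes II and V took their largest mean shares in in vivo GFP+ cells.

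Levels of single members were compared per kilobase of exon, with the exons of all annotated transcripts of a gene joined. Such a length can exceed that of the transcript in use, so values per kilobase depend on the annotation. In vivo GFP+ cells held the most of Atp5a1 (621 ± 160 CPM per kb, n = 5), the catalytic-head subunit alpha of the ATP synthase, of Cox6b1 (554 ± 158) and of Atp5b (542 ± 143), subunit beta. In vivo RFP+ cells held the most of Uqcr11 (1016 ± 294 CPM per kb, n = 4), a small subunit of complex III, and of Cox6b1 (999.7 ± 188), a complex IV subunit on the intermembrane side. In vitro RFP+ cells were also led by Cox6b1 (1048 ± 127 CPM per kb, n = 46), followed by Ndufa2 (806 ± 119), and in vitro GFP+ cells by Ndufb6 (712 ± 89.4, n = 37). At the low end, Cox8b and Cox8c had at most 3 counts in any library, and Ndufs5 had 2 counts in all 93 libraries. Ndufs5 encodes a complex I subunit that respiring cells use, so its value is not read as absence. How reads with several matches in the genome were counted is not given in the sources used here, and exons of 28 members overlap exons of another gene, 25 of them a gene on the opposite strand.

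In vivo, members such as Ndufb8, Ndufa7 and Atp5g1 were higher in RFP+ cells, while Sdha, Atp5a1 and Cox6a2 were higher in GFP+ cells. Of 79 members that passed the count filter, edgeR's quasi-likelihood test called 22 higher in RFP+ cells (6.21% of 8503 genes were called in this direction) and 3 higher in GFP+ cells (3.88%) at a Benjamini-Hochberg adjusted p under 0.1, and 54 did not pass. Of the 3, Cox6a2 had entered the test only through its counts in GFP+ libraries. The log2 fold change was above 0 for 71 of the 79, with a median of 0.82, against 0.09 over all genes tested. This gap of 0.73 was 0.21 with DESeq2 and 0.14 with no filter on low counts, and the 22 calls became 9 without G11 or without H11 (wells of RFP+ libraries) and 13 without G12. For these runs with a library left out, counts over all genes are not given here. By complex, the calls towards RFP+ and GFP+ cells were 10 and 0 of 35 in complex I (median 0.96), 0 and 1 of 4 in complex II (-0.16), 3 and 0 of 9 in complex III (0.91), 4 and 1 of 14 in complex IV (0.77) and 5 and 1 of 17 in complex V (0.76). All 4 RFP+ libraries lay above all 5 GFP+ libraries for 31 members, where 13.7% of all genes tested did, and below them for 1 member, Sdha, where 3.6% did.

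Gene length moved with these counts and is given with them. The members are short, with a median exon length (exons of all annotated transcripts joined) of 1697 bp against 4680 bp over the genes tested. Among other genes, short genes (up to 2744 bp) stood above long ones (from 7246 bp) by 0.31 to 0.50 log2 units in in vivo RFP+ libraries and below them by values from -0.66 to -0.14 in in vivo GFP+ libraries, with no overlap. In vitro the same measure had medians of 0.07 in RFP+ and -0.09 in GFP+ libraries. When each library's length trend was removed, 6 of 79 members were called higher in RFP+ cells, where 436 of 8503 genes were. They were Ndufb8, Atp5j2, Atp5g1, Ndufb7, Ndufa7 and Cox5b. In GFP+ cells 4 were called higher (Cox6a2, Sdha, Atp5a1 and Sdhd), where 295 of 8503 genes were. The members' median became 0.17, against 0.14 over all genes. By complex the medians became 0.17 in I, -0.61 in II, 0.06 in III, -0.20 in IV and 0.30 in V. Calls towards RFP+ cells were then left for 3 members of complex I and 0 of complex III. Of the 6 members called higher in RFP+ cells, Atp5g1 (4912 bp), Ndufb7 (4522), Atp5j2 (3306) and Ndufb8 (3146) have long joined exons, unlike Ndufa7 (1828) and Cox5b (1587). Uqcr11 (641), Cox6a1 (702) and Cox6b1 (708), no longer called, have short ones. The part of the annotation in these calls was not tested. The part of RNA quality in the length trend was not tested.

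**Figure D2:**
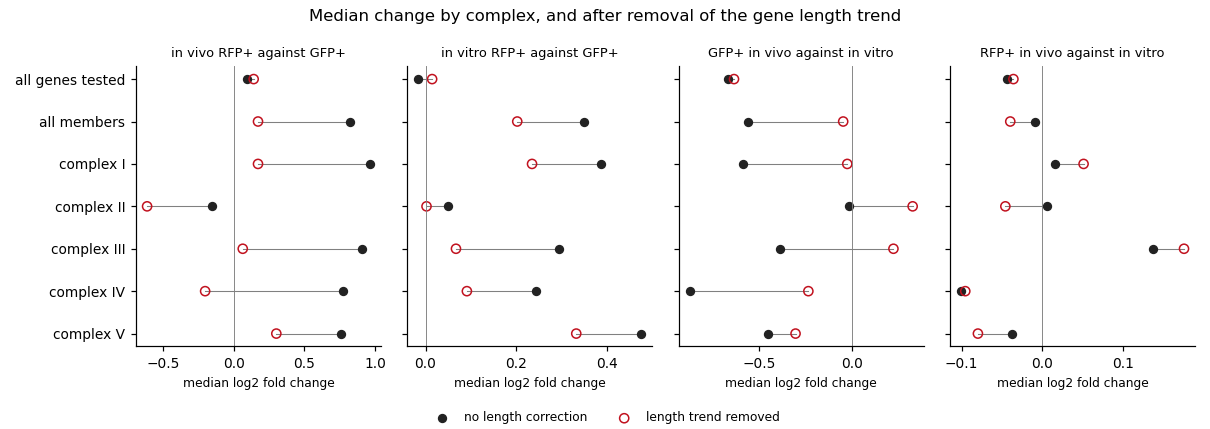
Median log2 fold change (x axis, a separate linear scale in each panel) of all genes tested, all members and each complex in the 4 comparisons, as filled points without and open points with the length trend removed. In vivo the members' median moves from 0.82 to 0.17 and that of complex IV from 0.77 to -0.20, while in vitro the members' median moves from 0.35 to 0.20.

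Gene positions are given in GRCm38 from GENCODE M21 and libraries are named by their wells. Within complex I, Ndufb8 (chr19:44548572-44555440), an accessory subunit of the membrane arm, was at 318, 368, 427, 266 and 266 CPM in the 5 GFP+ libraries (A12 to E12) and at 729, 986, 752 and 983 in the 4 RFP+ libraries (F12, G11, G12 and H11), the order used throughout. Its log2 fold change was 1.34 (SE 0.24, edgeR adjusted p = 0.00479), and it remained called in every alternative run. Ndufa7 (chr17:33824572-33838317) was at 82.9, 148, 50.8, 187 and 121 CPM in GFP+ and at 345, 547, 471 and 587 in RFP+ libraries, a log2 fold change of 2.01 (SE 0.38, edgeR adjusted p = 0.00723). In both genes the lowest RFP+ library was well above the highest GFP+ library. Ndufa3 (1.75, SE 0.51, edgeR adjusted p = 0.0555) and Ndufb6 (1.29, SE 0.37, edgeR adjusted p = 0.0506) were called too, but not with the length trend removed or without any of the RFP+ libraries G11, G12 or H11. The core subunits that carry the electron path did not pass. Ndufs1 was at 139, 268, 2.48, 538 and 181 CPM in GFP+ and 210, 143, 223 and 93.9 in RFP+ libraries (log2 -0.45, SE 0.83), and Ndufv1, which holds the NADH site, had a log2 fold change of 0.94 (SE 0.91).

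Without the length trend removed, complex II was the exception to the direction of the other complexes. Sdha (chr13:74322254-74350280), the flavoprotein that oxidises succinate and whose promoter holds the NRF1 letters shown above, was at 569.5, 920, 472, 966 and 635 CPM in GFP+ libraries and at 373, 299, 252 and 228 in RFP+ libraries. All GFP+ libraries lay above all RFP+ libraries, and the log2 fold change of RFP+ against GFP+ was -1.34 (SE 0.27, edgeR adjusted p = 0.0107). The value was -1.28 with the length trend removed, and the call held in every alternative run. Sdhb, the iron-sulfur subunit that takes the electrons from Sdha, had a log2 fold change of 0.74 (SE 0.32, edgeR adjusted p = 0.254), so the members of this 4-gene complex did not move together. Sdhd, a membrane anchor, had -0.35 (SE 0.28) and was called higher in GFP+ cells with the length trend removed.

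In complex III, Uqcr11 (chr10:80402997-80406830) was at 270.2, 231, 63.2, 197 and 145 CPM in GFP+ and at 458, 719.6, 545 and 883 in RFP+ libraries, with no overlap. Its log2 fold change of 1.81 (SE 0.37, edgeR adjusted p = 0.0107) fell to 0.55 with the length trend removed and was then not called. The other calls were the small subunits Uqcr10 (1.25) and Uqcrq (1.45), and neither was called with the length trend removed. The core subunits Uqcrc1 (0.50, SE 0.29), Uqcrfs1, the Rieske iron-sulfur protein (0.02, SE 0.45), and Cyc1, cytochrome c1 (1.09, SE 0.40), did not pass.

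In complex IV, Cox5b, a zinc-binding subunit, was at 84, 104, 19.8, 78.5 and 113 CPM in GFP+ and at 281, 331, 287 and 499 in RFP+ libraries, and its log2 fold change of 2.09 (SE 0.48, edgeR adjusted p = 0.0155) was 1.43 with the length trend removed. Cox6a1 (1.06, SE 0.32, edgeR adjusted p = 0.0667), Cox6b1 (0.81, SE 0.26, edgeR adjusted p = 0.0863) and Cox7b (1.12, SE 0.31, edgeR adjusted p = 0.042) were called higher in RFP+ cells. With the length trend removed none of these 3 was called and the first 2 turned to -0.13 and -0.41. Cox5a, which pairs with Cox5b in the complex, was at 71.1, 296, 88, 113 and 86.6 CPM in GFP+ and at 265, 304, 285 and 383 in RFP+ libraries, and it did not pass (1.20, SE 0.46, edgeR adjusted p = 0.177). GFP+ library B12 held the 296 CPM and lay within the RFP+ range.

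In complex V, Atp5g1 (chr11:96068852-96075670), one of 3 genes for the c-ring subunit, was at 172, 242, 161, 228 and 139 CPM in GFP+ and at 431, 644, 569 and 703 in RFP+ libraries. Its log2 fold change of 1.60 (SE 0.28, edgeR adjusted p = 0.00383) became 1.77 with the length trend removed, and it was called in every alternative run. Atp5j2, subunit f of the membrane part, was higher in RFP+ cells as well (1.41, SE 0.28, edgeR adjusted p = 0.00879). Atp5a1 was at 2080, 2019, 1720, 1278 and 2643 CPM in GFP+ and at 1529, 1131, 1302 and 942 in RFP+ libraries, and these overlapped. Its log2 fold change of -0.72 (SE 0.23, edgeR adjusted p = 0.0851) was not called without any of the libraries A12, B12, E12, G11, G12 or H11, nor with DESeq2 or with total counts. Atp5b, its partner in the catalytic head, had -0.24 (SE 0.21, edgeR adjusted p = 0.754).

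In vitro, most members were higher in RFP+ cells and the differences were smaller. Of 77 members tested with edgeR, 57 were called higher in RFP+ cells (37.8% of 9940 genes were) and 10 higher in GFP+ cells (40.1% were), and 10 did not pass. The members' median log2 fold change was 0.35, against -0.02 over all genes. By complex, the calls towards RFP+ and GFP+ cells were 28 and 2 of 35 in complex I, 2 and 2 of 4 in complex II, 5 and 2 of 9 in complex III, 8 and 3 of 12 in complex IV and 14 and 1 of 17 in complex V. With the length trend removed, 53 and 17 members were called, where 3939 and 3814 of 9940 genes were. The members' median was then 0.20, against 0.01 over all genes. Without well C9 the counts were 57 and 10 of 78.

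The largest difference towards RFP+ cells was in Atp5k, subunit e of the ATP synthase, at 77.7 to 183 CPM in GFP+ libraries (median 119) and 147 to 409 in RFP+ libraries (median 255). Its log2 fold change was 0.99 (SE 0.06, edgeR adjusted p = 1.41e-26). Atp5h, subunit d of the peripheral stalk, was at 212 to 449 CPM in GFP+ (median 341) and 541 to 751 in RFP+ libraries (median 624.9), and the groups did not overlap (log2 0.83, SE 0.04, edgeR adjusted p = 1.97e-37). Ndufb8, at 311 to 599 CPM (median 428) and 601 to 828 (median 719), did not overlap either (log2 0.69, SE 0.04, edgeR adjusted p = 2.8e-33). Uqcr11 was at 149 to 297 CPM (median 209.8) and 253 to 544 (median 405), with a log2 fold change of 0.86 (SE 0.05). The complex I members Ndufa3 (0.88) and Ndufc1 (0.86) were of similar size.

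Towards GFP+ cells the largest difference was in Cox6b2, followed by Cox7a2l, Ndufb6 and Uqcrc1. Cox6b2 (chr7:4751792-4753094), the testis-type counterpart of Cox6b1, was at 61.8 to 200.4 CPM in GFP+ libraries (median 109.5) and 8.4 to 41.1 in RFP+ libraries (median 22.5). The groups did not overlap, and the log2 fold change of RFP+ against GFP+ was -2.35 (SE 0.10, edgeR adjusted p = 1.35e-40). Cox7a2l, which joins complexes III and IV in supercomplexes, was at 147 to 266 CPM (median 205) and 94.8 to 156 (median 119), with -0.80 (SE 0.05, edgeR adjusted p = 4.48e-30). Uqcrc1, a core subunit of complex III, had -0.34 (SE 0.05, edgeR adjusted p = 6.83e-10), and Sdha had -0.22 (SE 0.06, edgeR adjusted p = 0.000315) at 181 to 354 CPM (median 270.2) and 141 to 381 (median 226).

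The in vivo and in vitro comparisons share no libraries. Of 76 members tested in both, 23 were called in both. RFP+ cells were higher in both sources for 20 of them, which is 20 of the 22 called in vivo and of the 57 called in vitro in that direction, where 3.69% of the 8182 genes tested in both were called so. With the length trend removed in both sources, 5 members were called so (Atp5g1, Atp5j2, Cox5b, Ndufb7 and Ndufb8), where 2.66% of the 8182 genes were. Without that removal they were Ndufa2, Ndufa3, Ndufa4, Ndufa7, Ndufa13, Ndufb7, Ndufb8, Ndufb10 and Ndufs6 of complex I, Uqcr10 and Uqcr11 of complex III, Cox5b, Cox6a1, Cox6b1 and Cox7b of complex IV, and Atp5g1, Atp5h, Atp5j, Atp5j2 and Atp5o of complex V. GFP+ cells were higher in both sources for Sdha alone (1.6% of all genes were called so), and for Sdha and Sdhd with the length trend removed (1.32% of all genes). Atp5a1 and Ndufb6 were called in opposite directions.

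**Figure D3:**
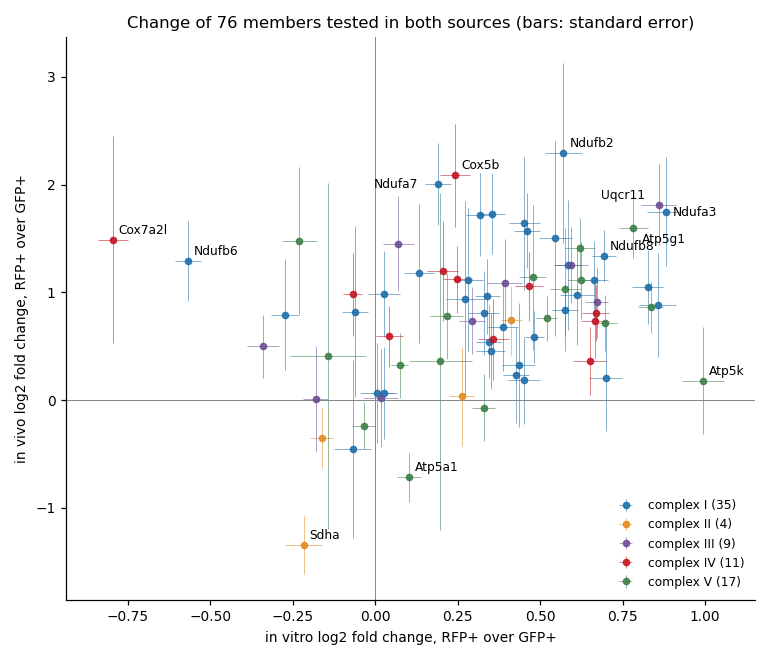
Log2 fold change of RFP+ against GFP+ cells in vitro (x axis) and in vivo (y axis) for the 76 members tested in both, coloured by complex, with bars for the standard error and linear axes of log2 units. Most members lie above 0 on both axes, Sdha lies below 0 on both, and Ndufb6 lies at 1.29 in vivo and -0.57 in vitro.

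The difference between the in vivo and in vitro changes was tested with each change's own SE (7 degrees of freedom, adjusted over 8182 genes, of which 5.68% were called). It passed for 3 of 76 members. For Ndufb6 (chr4:40270591-40279421), an accessory subunit of complex I, the in vivo minus in vitro difference was 1.86 on the log2 scale (edgeR fits, adjusted p = 0.0485). In vivo it was at 141, 169, 81.8, 209 and 96.2 CPM in GFP+ and 262, 349, 342 and 445 in RFP+ libraries, and in vitro at 352 to 651 (median 457) and 253 to 402 (median 323), so the in vivo GFP+ libraries were the lowest of all. On the opposite strand the gene Toporsos (Smim27) shares 257 of the 659 exon bases of Ndufb6, and its own level was 0 to 23.8 CPM over the 4 groups. Ndufa7 differed by 1.82 (edgeR fits, adjusted p = 0.0544) and Sdha by -1.13 (edgeR fits, adjusted p = 0.0901), both with the larger change in vivo. At an unadjusted p under 0.05 the difference was seen for 19 members and 1060 genes.

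Several complex IV genes have a partner used mainly in another tissue, and shares within the pair were taken for 4 of them. Cox6a2 (chr7:128205435-128206387), the muscle-type partner of Cox6a1, was at 0, 99.5, 16.1, 15.9 and 73.8 CPM in in vivo GFP+ libraries and at 0 in all 4 in vivo RFP+ libraries. Against a floor of 3 counts per library (2.24 CPM), its mean of 41.1 CPM in GFP+ cells was at least 18.3-fold higher, a bound for counting error only, and edgeR's adjusted p was 0.0586. Cox6a2 passed the count filter only through the GFP+ libraries, where it was high, so this p is given as a description. One GFP+ library, A12, was at 0 like the RFP+ libraries, and the call was lost without any 1 of the RFP+ libraries. Per kilobase, Cox6a2 made up 12.7 ± 10.7% of the pair in in vivo GFP+ cells and 1.45 ± 1.27% in in vitro GFP+ cells. In vitro it was at 4.69 ± 4.24 CPM in GFP+ (n = 38) and 0.335 ± 0.787 in RFP+ cells (n = 46), which differed in a two-sided permutation test (p = 2e-05, the smallest that 100000 resamples can give, 6 members tested this way).

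Cox7a1 (chr7:30184144-30186078), the muscle-type partner of Cox7a2, was at 36.6, 84.8, 6.2, 22.9 and 11.8 CPM in in vivo GFP+ and at 4.37, 10.5, 3.38 and 15.8 in in vivo RFP+ libraries. The ranges overlapped and the difference did not pass (log2 -1.94, SE 1.27, edgeR adjusted p = 0.612). Its share of the pair was 13.2 ± 6.92% in in vivo GFP+ cells (5.45 to 21.1%), above the 2.54 ± 1.29% of in vivo RFP+ cells (1.08 to 3.98%) with no overlap, and 1.63% and 1.47% in in vitro GFP+ and RFP+ cells. The share also depends on Cox7a2, at 338 ± 163 CPM per kb in in vivo GFP+ and 578 ± 120 in in vivo RFP+ cells. Cox7a1 itself had only 4 to 22 counts in the in vivo RFP+ libraries. In vitro the muscle-type gene was slightly higher in RFP+ cells, at 5.28 ± 2.63 against 3.68 ± 2.72 CPM (permutation p = 0.00202).

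Cox6b2 had the opposite distribution over the groups. It made up 13.8 ± 3.49% of the pair with Cox6b1 in in vitro GFP+ cells (8.3 to 24.2%, n = 37) and 1.97 ± 0.696% in in vitro RFP+ cells (0.736 to 3.53%, n = 46), with no overlap. In vivo it was at 0, 11.7, 0, 0 and 32.1 CPM in GFP+ and at 5.1, 6.33, 0.844 and 12.9 in RFP+ libraries, which did not differ beyond their spread (two-sided exact permutation p = 0.556, 4 members tested this way). Cox4i2, the hypoxia-induced partner of Cox4i1, made up 5.49 ± 4.18% and 3.62 ± 1.61% in vivo and 1.41% and 1.38% in vitro, and the difference between populations passed in neither source (edgeR adjusted p = 0.998 in vivo, permutation p = 0.663 in vitro). The testis-type Cox7b2 was at 1.43 ± 2.07 CPM in in vitro GFP+ and 0.139 ± 0.399 in in vitro RFP+ cells (permutation p = 2e-05), near the level of 1 count per library.

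**Figure D4:**
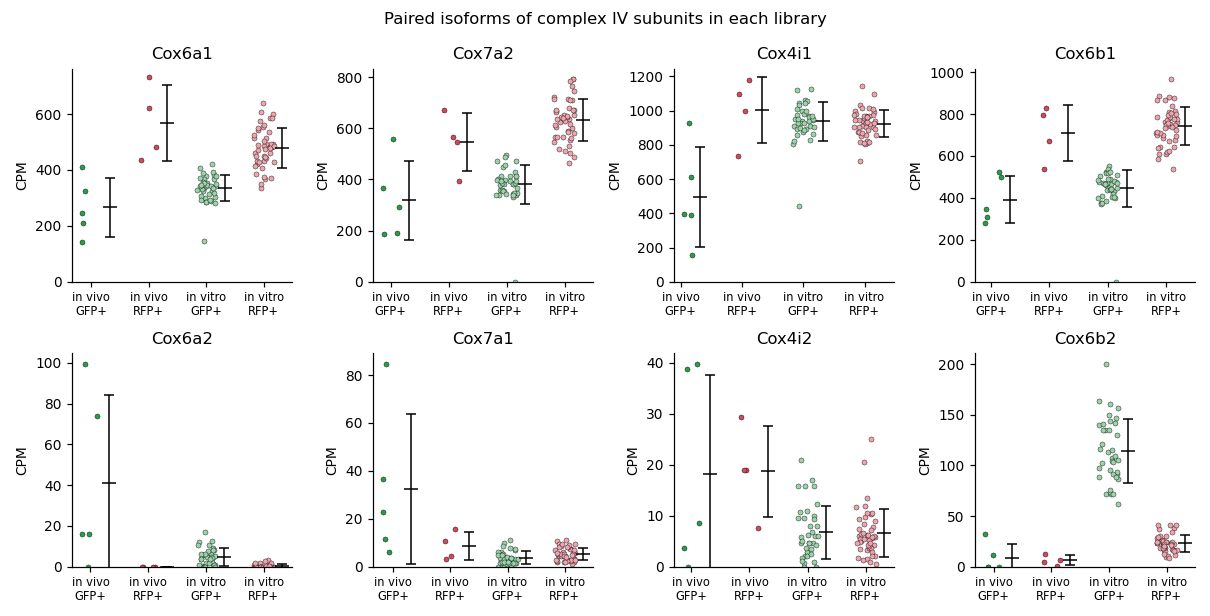
CPM (linear axes from 0, a separate scale in each panel) of 4 widely used complex IV genes in the upper row and of the tissue-type partner of each below it, with 1 point per library, well C9 included, and bars for the group mean and SD that are cut at 0. Cox6a2 and Cox7a1 reach their highest values in in vivo GFP+ libraries (99.5 and 84.8 CPM), and Cox6b2 reaches its highest in in vitro GFP+ libraries (200.4 CPM).

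The c-ring of the ATP synthase is made from identical mature proteins encoded by Atp5g1, Atp5g2 and Atp5g3. Their joined exons measure 4912, 1675 and 2181 bp, and the size of the shares below depends on these lengths. Per kilobase, Atp5g1 made up 10.8 ± 3.41% of its sum with Atp5g3 in in vivo GFP+ cells (6.88 to 16.2%) and 17.1 ± 0.904% in in vivo RFP+ cells (15.9 to 17.9%), so the ranges overlapped, while in vitro it stood at 8.75% and 9.26%. Atp5g2 made up 9.92 ± 4.74% and 14.1 ± 0.834% in vivo and 16.8% and 14.8% in vitro. Atp5g3 itself had a log2 fold change of RFP+ against GFP+ of 0.72 in vivo (SE 0.26, edgeR adjusted p = 0.138) and 0.70 in vitro (SE 0.03, edgeR adjusted p = 2.59e-34).

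The embryo and spheroid cells of each population were compared next. These comparisons share libraries with those above, and source and plate column cannot be told apart. Among GFP+ cells, 7 of 80 members were called higher in vivo (19.7% of 11822 genes were) and 54 higher in vitro (48.3% were). The members' median log2 fold change was -0.56, against -0.67 over all genes, and it was -0.05 against -0.64 with the length trend removed. The split depended on scaling and length, with 20 and 28 calls under DESeq2's size factors, for which counts over all genes are not given here. With the length trend removed 29 and 31 members were called, where 2348 and 5641 of 11822 genes were.

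The members higher in in vivo GFP+ cells included the muscle-type genes Cox7a1 and Cox6a2, while Cox8b, the muscle-type partner of Cox8a, had 0 counts in all in vivo libraries. Cox7a1 (2.95, SE 0.53, edgeR adjusted p = 6.65e-08) and Cox6a2 (2.94, SE 0.73, edgeR adjusted p = 2.73e-05) led them, followed by Sdha (1.24, SE 0.14, edgeR adjusted p = 1.51e-12), Cox4i2 (1.23), Atp5a1 (0.74, SE 0.12, edgeR adjusted p = 1.28e-07) and Ndufv3 (0.36). Cox4i2 was not called without A12 or without B12. All 5 in vivo GFP+ libraries lay above all in vitro GFP+ libraries for Sdha. The largest differences towards in vitro GFP+ cells were in Cox6b2 (-3.88, SE 0.41), Cox7a2l (-2.73, SE 0.23), Ndufa7 (-2.08, SE 0.14) and Ndufb2 (-1.93, SE 0.24), all called with edgeR. Cox6b2 was at 0 in in vivo GFP+ libraries A12, C12 and D12. It passed the count filter only through the in vitro libraries, where it was high, so its value is given as a description.

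RFP+ cells of embryo and spheroid differed less. Of 79 members, 19 were called higher in vivo (20.1% of 11147 genes were) and 18 higher in vitro (22.5% were), with a median of -0.01 against -0.04 over all genes. Higher in vivo were Cox4i2 (1.51, SE 0.48), Atp5g1 (0.87, SE 0.10), Cyc1 (0.78, SE 0.12) and Uqcr11 (0.72, SE 0.13). Higher in vitro were Cox6b2 (-1.82, SE 0.35), Atp5s (-0.79, SE 0.30), Cox6c (-0.70, SE 0.12) and Ndufb4 (-0.65, SE 0.13). Cox6b2 was at 5.1, 6.33, 0.844 and 12.9 CPM in the in vivo RFP+ libraries. There too it passed the count filter only through the in vitro libraries, so its value is given as a description. Complex III had 4 calls towards the embryo and 0 towards the spheroid among 9 members, and complex I had 11 and 8 of 35.

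Genes around the respiratory chain did not all follow it. In vivo, 1 of 39 assembly factors tested was called, Uqcc2, which complex III needs for its assembly, at 19.8 to 89.5 CPM in GFP+ and 283 to 459 in RFP+ libraries (log2 2.76, SE 0.47, edgeR adjusted p = 0.00411). Over all genes, 6.21% were called towards RFP+ and 3.88% towards GFP+ cells in this comparison. In the citric acid cycle and pyruvate dehydrogenase list, 0 of 17 enzymes were called higher in RFP+ cells and 4 higher in GFP+ cells, as Sdha was. They were citrate synthase Cs (-1.59, SE 0.25, edgeR adjusted p = 0.00223), Ogdh (-1.64, SE 0.34, edgeR adjusted p = 0.0119), Idh3a (-1.52, SE 0.38, edgeR adjusted p = 0.0303) and Dlst (-1.50, SE 0.46, edgeR adjusted p = 0.08), and 3 enzymes were called in this direction with the length trend removed. Cs was at 634 to 1290 CPM in GFP+ and 247 to 351 in RFP+ libraries. The list's median was -0.25, where the respiratory chain members had 0.82, and with the length trend removed these medians were -0.39 and 0.17.

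Of 14 electron carrier genes 1 was called higher in in vivo RFP+ cells and 0 higher in GFP+ cells. It was Pdss2, of ubiquinone synthesis, at 0 in all GFP+ libraries and 11.8 to 32.8 CPM in RFP+ libraries (edgeR adjusted p = 0.0117). Pdss2 passed the count filter only through the RFP+ libraries, so this p is given as a description. Of 10 mitochondrial regulators 0 were called in either direction. Of 4 subunits or inhibitors outside the symbol rule, Atpif1, the inhibitor of the ATP synthase (1.20, SE 0.24, edgeR adjusted p = 0.00902), and Ndufab1 (1.49, SE 0.47, edgeR adjusted p = 0.0827) were called higher in RFP+ cells. In vitro the calls towards RFP+ and GFP+ cells were 24 and 8 of 43 assembly factors, 7 and 7 of 15 electron carriers, 7 and 6 of 17 citric acid cycle enzymes and 4 and 4 of 11 regulators, beside 37.8% and 40.1% of all genes. Cytochrome c, Cycs, was among the electron carriers higher in in vitro RFP+ cells (0.93, SE 0.05, edgeR adjusted p = 6.56e-34), and Cs was again higher in GFP+ cells (-0.68, SE 0.04, edgeR adjusted p = 1.1e-26).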

How the data were processed

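RNA was sequenced from pools of 10 sorted cells. The authors trimmed reads with Trimmomatic 0.36, mapped them to mm10 (GRCm38) with HISAT2 2.0.4 and counted them with featureCounts 1.5.2, per the submitters' processing notes, and the deposited values are these whole counts without normalization. There are no molecular identifiers, so floors cover counting error only, and strand use is not given in the sources used here. All 93 columns were matched to labels and 0 were left out.

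Counts were compared in R 4.3.3 with edgeR 4.0.16 (TMM, filterByExpr with minimum count 10, total 15 and proportion 0.7, trended dispersion, quasi-likelihood F-test), Benjamini-Hochberg adjusted over all genes tested and called under 0.1. Members that the filter removed were compared by permutation of log2 CPM with a prior count of 2. CPM used TMM over all libraries. Exon lengths were those of the joined exons of all transcripts of a gene in GENCODE M21, and promoters came from RefSeq. DESeq2 1.42.0, other scalings and filters, a stricter threshold, adjusted deviances, taking out the trend with exon length in every library, leaving out libraries, summing near-identical wells and plate row were tried as alternatives, and the tests were tested on simulated data. Python 3.11.15 with scipy 1.17.1 was used for the rest. Members, gene lists and tests were chosen with earlier results of these data known. Named are all members of families with paralogs, 10 core subunits and, in each comparison, the 4 called members of largest size in each direction. The others were named after their values were seen, as were the genes of the lists outside the chain.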

Additional observations from a re-analysis of the deposited data

Results flagged for a closer look

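Among the named members and the sums by complex, 3 of 88 groups of 4 or 5 in vivo libraries held a library far from the others, where chance gives about 1 in 20. Cox5a was at 296 CPM in in vivo GFP+ library B12, far above the other GFP+ libraries. Atp5g2 was at 120 CPM in in vivo RFP+ library F12, below the other RFP+ libraries. Cox7b2 was at 0.716 CPM in in vivo RFP+ library H11, which is 1 count where the others had 0.

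The change between RFP+ and GFP+ cells differed between embryo and spheroid for 3 of 76 members in the test of the difference itself, where 5.68% of all genes tested were called. The in vivo minus in vitro difference was 1.86 for Ndufb6, 1.82 for Ndufa7 and -1.13 for Sdha on the log2 scale. For Ndufb6 and Ndufa7 the in vivo GFP+ libraries were the lowest on average of the 4 groups, and for Sdha they were the highest.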

How the results depend on the processing

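In vivo, the members called higher in RFP+ cells fell from 22 to 13 at an adjusted p under 0.05 and to 6 with the length trend removed (where 436 of 8503 genes were called so), and those higher in GFP+ cells from 3 to 1 at the stricter threshold. Leaving out each in vivo library gave 9 (without G11 or H11) to 29 (without B12) towards RFP+ and 1 to 2 towards GFP+ cells, with 13 and 1 without G12. In this section, counts over all genes are not given for left-out libraries, the stricter threshold, DESeq2 or its size factors. A change in the members' counts there cannot be told apart from a change in calls over all genes. The members' median minus that of all genes was 0.73 there, 0.62 to 0.83 over the left-out libraries, 0.21 with DESeq2, 0.14 with no filter on low counts and 0.0308 with the length trend removed, where Cox6a1 (-0.13) and Cox6b1 (-0.41) reversed. In vitro, 17 members were higher in GFP+ cells with the length trend removed, where 3814 of 9940 genes were. For GFP+ cells of both sources, the counts higher in vivo and in vitro were 20 and 29 with DESeq2, 20 and 28 with its size factors in edgeR and 29 and 31 with the length trend removed, and 4 (without B12) to 11 (without C12) and 50 to 61 over left-out libraries. Single members turned positive there, with DESeq2 Atp5g3 (0.0985), Cox6b1 (0.0899), Cox7a2 (0.011), Uqcrc1 (0.0375) and Uqcr11 (0.0421), with its size factors Atp5g3 (0.0981), Cox6b1 (0.0881), Cox7a2 (0.0125), Uqcrc1 (0.0381) and Uqcr11 (0.0372), and with the length trend removed Cox6a1 (0.53), Ndufa3 (0.22), Cox6b1 (0.70), Cox7a2 (0.41), Uqcr11 (0.69) and Cox8a (0.27). The causes were not tested. DESeq2's size factors moved the median of all genes from -0.67 to -0.22 there. For RFP+ cells of both sources, the median difference turned from 0.0351 to -0.0038 with the length trend removed, and left-out libraries gave 15 to 24 members higher in vivo and 10 (without F12) to 21 higher in vitro, with median differences of 0.0042 to 0.11. No paired analysis was possible because wells were not assigned to embryos or differentiations. With plate row as a covariate in vitro the counts were 57 and 10. With 4 or 5 in vivo libraries, changes of low members such as Cox7a1 and Cox4i2 were not resolved in vivo.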
